A study of Mus musculus with 24 samples.

Results

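Macrophage identity genes were followed in cultured mouse whisker follicles given vitamin derivatives. The 10 genes were Aif1, Itgam, Cd68, Adgre1, Csf1r, C1qa, C1qb, C1qc, Cd163 and Mrc1, chosen by name among the gene names of the array files, and they are 10 of 22065 genes or transcripts tested. The array carried 17 probes for them, 14 of which were tested, and each gene is described by its probe with the highest mean signal.

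Vibrissa follicles of B6C3F1 mice at postnatal day 9 were cultured for 24 h in serum-containing medium, and 1 sample was the total RNA of 10 follicles. Each sample was hybridised to a one-colour Agilent array, and 3 independent experiments gave 3 samples in each of 8 groups. The single-compound groups received Panthenyl ethyl ether (PEE) at 0.3%, Pyridoxine hydrochloride (PH) at 0.015% or Tocopherol Acetate (TA) at 0.024%. The combined groups received PEE-PH, PEE-TA, PH-TA or PEE-PH-TA at the same concentrations, and the control group received none of these compounds. All groups shared the strain, age and culture medium, and the number of animals behind a sample is not given in the sources used here. The series' title gives the question, whether vitamins and their derivatives together promote hair shaft growth outside the body. P-values rest on the spread between samples of the same group, pooled over the 8 groups. The main fit does not pair samples across groups.

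Macrophages are phagocytes that clear debris, and in skin they lie in the dermis and around hair follicles, where they are known for taking part in the hair cycle and in repair. They depend on signals through the receptor encoded by Csf1r, and they are a main source of C1q, the recognition molecule of the classical complement pathway. In RNA of whole follicles, fewer macrophages and less RNA per macrophage cannot be told apart.

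Values are log2 signals relative to the 75th percentile of the same array, so that 0 is the level of that percentile. Well-above-background calls covered 58.3% to 62.5% of an array's spots, and no spot was saturated. The 75th percentile itself ranged from 142 to 147 signal units in the PEE arrays, from 203 to 248 units in the PH-TA arrays and from 155 to 190 units in the control arrays. Of the 10 members, 9 were well above background on all 24 arrays, and Cd163 was so on 3. The 9 include Itgam by a probe with a sequence repeat, and its other tested probe was well above background on 13 arrays, so 8 members were measured in every sample by probes without this limit. Levels of different probes are not on one scale and are not compared. Each compound or mixture was compared with the same 3 control arrays, so those comparisons share their controls. A gene was called at a Benjamini-Hochberg adjusted p under 0.05 in limma over all genes tested.

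Aif1 and the 3 C1q genes were lower with PEE on average, whereas Cd68 was slightly higher. Averaged over the 4 backgrounds with and without the compound, PEE lowered 6 of the 10 members (Aif1, C1qa, C1qb, C1qc, Adgre1 and Mrc1) and raised 1 (Cd68). Of all genes tested, 14.2% fell and 12.8% rose with PEE on average. PH lowered 4 of 10 members on average (Aif1, Itgam, Adgre1 and Csf1r) and raised none, and 17.4% of all genes fell and 13.9% rose. For TA limma called 0 of 10 members, with 2 of 10 at an unadjusted p under 0.05 (Aif1 and Itgam), where 5.20% of all genes fell. The members' median log2 change on average with PEE was -0.33, beside 0.01 over all genes. It was -0.12 with PH, beside -0.02, and -0.04 with TA, beside -0.01.

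**Figure D1:**
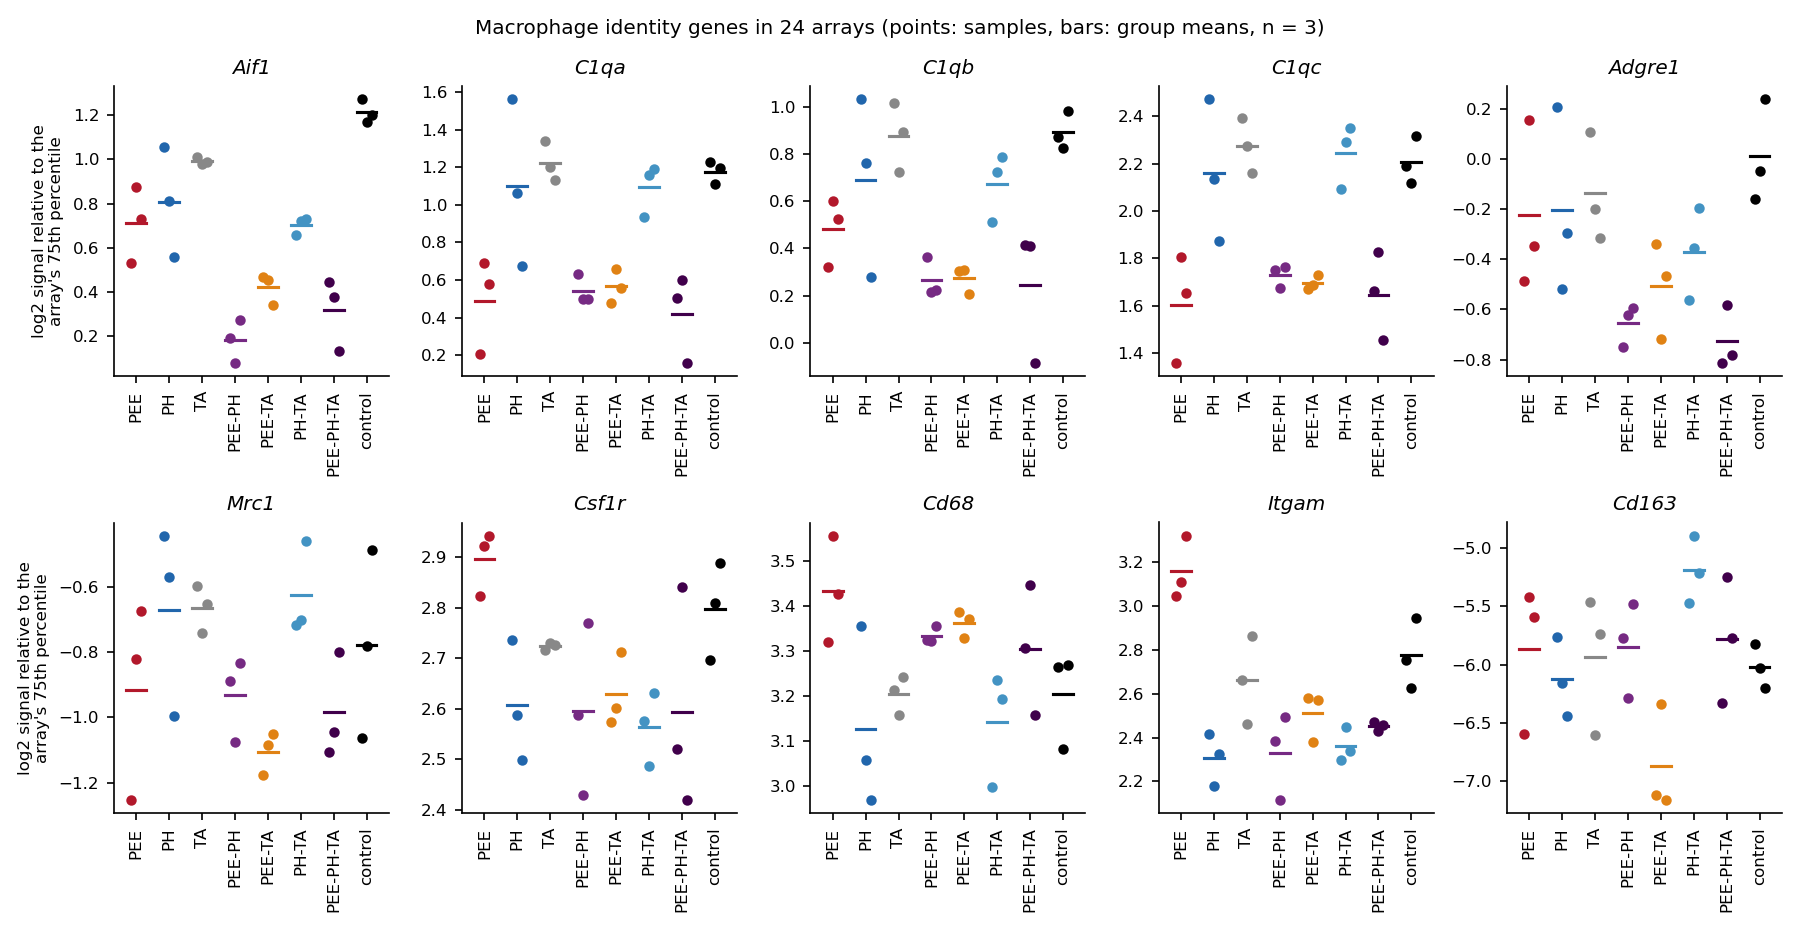
Log2 signal relative to the array's 75th percentile (vertical axes, a separate range for each gene) of the 10 members in the 8 groups; points are samples and bars are group means of 3. The C1q genes have lower group means in the 4 groups with PEE than in the 4 without it, though C1qb samples overlap. Aif1 is lowest in the 3 mixtures with PEE, and with PEE alone (0.71) it is beside PH-TA (0.70). The Itgam panel has its own order of groups.

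Aif1, which encodes an actin-binding protein used to stain macrophages (IBA1), was called lower in 6 of the 7 comparisons with control, all but TA. It measured 0.45, 0.38 and 0.13 in the PEE-PH-TA samples, against 1.27, 1.17 and 1.20 in the control samples. The PEE-PH samples were at 0.19, 0.08 and 0.27, and the PEE-TA samples at 0.47, 0.45 and 0.34. All of these treated samples lay below the 3 control samples with no overlap. Among the single compounds, Aif1 was at 0.53, 0.87 and 0.73 with PEE, at 1.05, 0.81 and 0.56 with PH, and at 1.01, 0.98 and 0.99 with TA. The PH-TA samples were at 0.66, 0.72 and 0.73. The order of the group means was control (1.21), TA (0.99), PH (0.81), PEE (0.71), PH-TA (0.70), PEE-TA (0.42), PEE-PH-TA (0.32) and PEE-PH (0.18). Only control and TA, and PH-TA and PEE-TA, were neighbours whose samples did not overlap in this order, and the other 5 neighbouring pairs overlapped.

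Aif1 fell by 46.3% with PEE-PH-TA (log2 change -0.90 ± 0.11 SE, adjusted p = 2.18e-05), it fell by 51.1% with PEE-PH (-1.03 ± 0.11, adjusted p = 2.12e-06) and it fell by 42.2% with PEE-TA (-0.79 ± 0.11, adjusted p = 6.82e-05). These 3 calls and the average effect of PEE (-0.52 ± 0.05, adjusted p = 8.04e-07) held under every alternative run. The smaller fall with PH alone (-0.41 ± 0.11, adjusted p = 0.0342) did not: it was lost when any 1 of the 3 control samples was left out (adjusted p 0.0936, 0.0667 and 0.109 without replicates 1, 2 and 3), or PH replicate 2 (0.121) or PH replicate 3 (0.136). With each array's 75th percentile as a covariate, the average effect of PH on Aif1 was -0.27 (adjusted p = 0.157), against -0.33 ± 0.05 (adjusted p = 0.000245) without it. Over all genes the covariate left 95 higher and 163 lower for PH on average, against 3059 and 3839 without it. TA alone gave -0.22 ± 0.11 for Aif1 (adjusted p = 0.302).

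C1qa, C1qb and C1qc encode the chains A, B and C of C1q, and the genes follow one another directly in the RefSeq table of mouse chromosome 4, in the order C1qb, C1qc, C1qa. The probes that measured C1qa and C1qb lie on the minus strand of mm9 at chr4:136452409-136452468 and chr4:136436578-136436637. They are shown whole, 5′ to 3′, because the changes below rest on these stretches:
C1qa probe: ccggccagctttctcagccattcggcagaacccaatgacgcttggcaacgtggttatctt
C1qb probe: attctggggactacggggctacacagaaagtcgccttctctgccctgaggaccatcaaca

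C1qc separated the follicles with PEE from those without it completely. It ranged from 1.36 through a median of 1.68 to 1.83 in the 12 samples with PEE, against 1.87 through 2.23 to 2.47 in the 12 samples without PEE. For C1qa, 11 of the 12 samples with PEE lay below every sample without it, at 0.16 (lowest), 0.53 (median) and 0.69 (highest), against 0.68, 1.17 and 1.56 without PEE. C1qb overlapped more, at -0.09, 0.32 and 0.60 with PEE, against 0.28, 0.81 and 1.03 without it.

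By sample, C1qa measured 0.51, 0.60 and 0.16 with PEE-PH-TA and 0.21, 0.69 and 0.58 with PEE, against 1.23, 1.11 and 1.19 in control samples. C1qc measured 1.66, 1.83 and 1.46 with PEE-PH-TA and 1.36, 1.80 and 1.65 with PEE, against 2.19, 2.12 and 2.32 in control samples. Both genes were lower in each of these treated samples than in any control sample. With PH alone C1qc spread widely, at 2.47, 2.14 and 1.87, and these samples lay on either side of the control samples. In the order of group means of C1qc, TA (2.27), PH-TA (2.24), control (2.21) and PH (2.16) stood above PEE-PH (1.73), PEE-TA (1.70), PEE-PH-TA (1.65) and PEE (1.61), and PH and PEE-PH were the only neighbours without overlap.

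The average effect of PEE was that C1qa fell by 36.0% (log2 change -0.64 ± 0.08, adjusted p = 1.23e-05), C1qb fell by 27.6% (-0.47 ± 0.08, adjusted p = 0.000155) and C1qc fell by 31.8% (-0.55 ± 0.07, adjusted p = 5.11e-06). These 3 calls held under every alternative run. Within the 3 slides, each of which held 1 array of every group, the average change ran from -0.81 to -0.52 for C1qa, from -0.52 to -0.37 for C1qb and from -0.67 to -0.46 for C1qc. C1qa with PEE minus without it was -0.69 on its own, -0.56 on top of PH, -0.66 on top of TA and -0.67 on top of PH-TA, so that the size was alike in the 4 backgrounds. The average effects of PH were -0.07 ± 0.08 for C1qa, -0.16 ± 0.08 for C1qb and -0.00 ± 0.07 for C1qc, none of them called, with 95% intervals from -0.25 to 0.10, from -0.32 to -0.00 and from -0.14 to 0.14. A test of the difference between the 2 average effects, added after these values were seen, called 7 of the 10 members, where 27.9% of all genes were called. Those 7 include Itgam by its repeat probe and Cd163, which was well above background only in PH-TA samples. PEE lowered C1qa by 0.57 ± 0.12 more on the log2 scale than PH did (adjusted p = 0.00177) and C1qc by 0.55 ± 0.09 more (adjusted p = 0.000347), and both held under every alternative run.

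The difference for C1qb (-0.30 ± 0.11, adjusted p = 0.0446) was lost without any 1 of 16 of the 24 arrays. Mrc1 (-0.36 ± 0.11, adjusted p = 0.0229) was also lower with PEE than with PH on average, and Itgam (0.50 ± 0.08, adjusted p = 0.000219) and Cd68 (0.26 ± 0.07, adjusted p = 0.0074) were higher. The call for Mrc1 was lost without PH replicate 1, PH replicate 2, PEE replicate 1 or PH-TA replicate 3. Cd163 passed the filter only through PH-TA, and its difference reversed to 0.17 with normexp background, so nothing is read from its call. With the 75th percentile as a covariate 3 of the 7 calls remained, those of C1qa, C1qc and Mrc1. Without PH replicate 2, PEE replicate 1 or PH-TA replicate 3, 4 members were called.

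**Figure D2:**
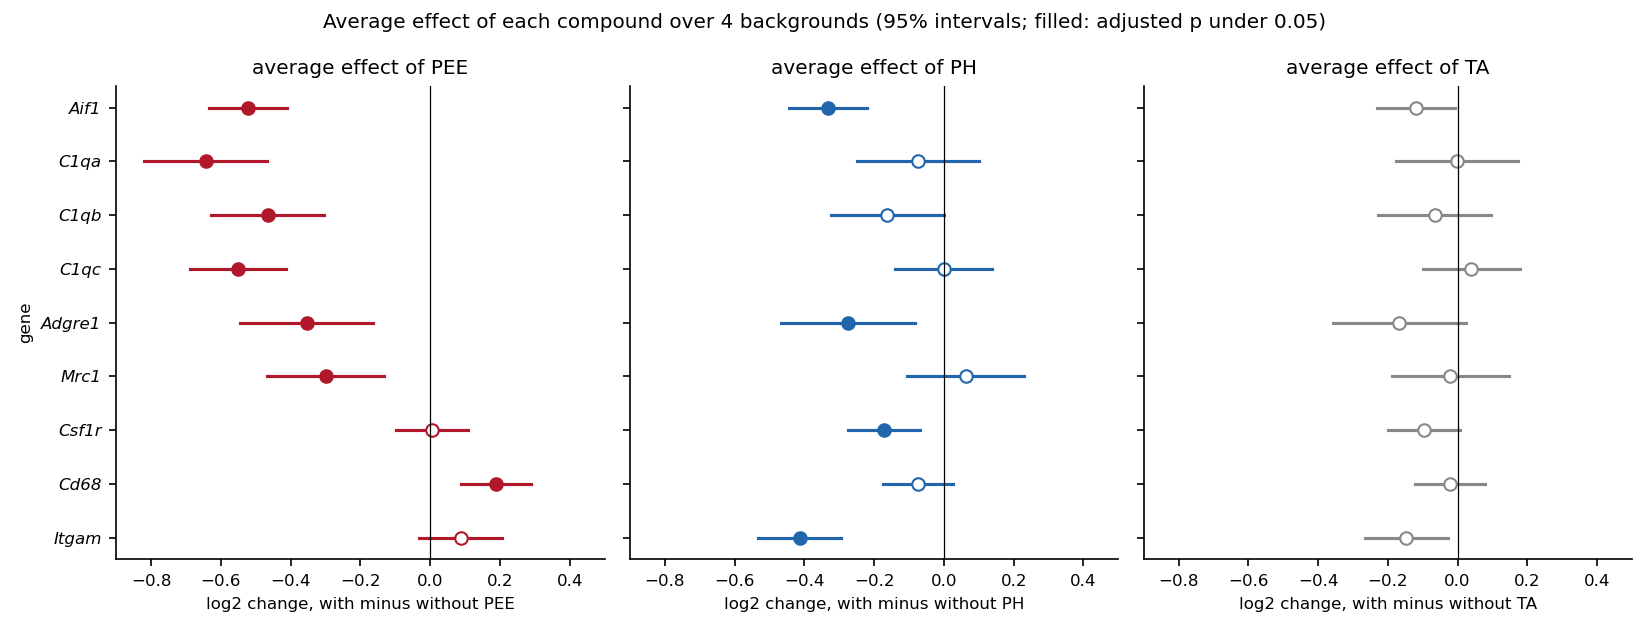
Average log2 change of 9 members with minus without PEE, PH and TA over the 4 backgrounds (points, with 95% intervals from limma); filled points passed an adjusted p of 0.05. PEE shows falls from -0.30 (Mrc1) to -0.64 (C1qa) and a rise of 0.19 (Cd68), PH shows falls of Itgam, Aif1, Adgre1 and Csf1r, and TA shows none past the threshold.

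Against control, PEE alone lowered 3 of 10 members and raised 1, where 5.69% of all genes fell and 5.20% rose. The fallers were Aif1 (log2 change -0.50 ± 0.11, adjusted p = 0.00534), C1qa (-0.69 ± 0.17, adjusted p = 0.0128) and C1qc (-0.60 ± 0.13, adjusted p = 0.00666), and the riser was Itgam. C1qb with PEE alone was at -0.41 ± 0.15 (adjusted p = 0.0993). The C1qa call was lost without PEE replicate 1 (adjusted p = 0.0701), the sample with the lowest C1qa of that group. PH alone lowered 2 of 10 members (Aif1 and Itgam), where 3.65% of all genes fell. For TA alone limma called 0 of 10 members, also 0 at an unadjusted p under 0.05, where 1.43% of all genes fell.

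PEE-PH lowered 6 of 10 members (Aif1, Itgam, Adgre1, C1qa, C1qb and C1qc), where 20.9% of all genes fell, and PEE-TA lowered 5 of 10, where 15.3% fell. PEE-PH-TA lowered 5 of 10 members and raised none, where 8.72% of all genes fell and 7.78% rose. The C1q members of that triple-mixture count were C1qa (-0.76 ± 0.17, adjusted p = 0.00431), C1qb (-0.65 ± 0.15, adjusted p = 0.00715) and C1qc (-0.56 ± 0.13, adjusted p = 0.00667), and the other members in it were Aif1 and Adgre1. PH-TA lowered 2 of 10 (Aif1 and Itgam), where 17.5% of all genes fell, a share near that of the members. With the 75th percentile as a covariate, 1 of the 6 calls for PEE-PH remained (Aif1) and 2 of the 5 for PEE-TA (Aif1 and C1qb), whereas all 5 for PEE-PH-TA remained. Over all genes the covariate cut the PEE-PH calls from 3293 higher and 4621 lower to 1206 and 2069. The PEE-TA calls went from 2253 and 3373 to 1459 and 2251, and those for PEE-PH-TA from 1717 and 1925 to 1401 and 1750. Calls lost under it are therefore not particular to the members. Under that covariate C1qc changed by -0.23 with PEE-PH (adjusted p = 0.399), against -0.48 ± 0.13 (adjusted p = 0.00922) without it.

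What each compound added to a pair was tested directly. PEE-PH-TA follicles had less Aif1 (-0.39 ± 0.11, adjusted p = 0.0227), C1qa (-0.67 ± 0.17, adjusted p = 0.0134) and C1qc (-0.60 ± 0.13, adjusted p = 0.00674) than PH-TA follicles, 3 of 10 members, where 13.5% of all genes were called. Fewer were called without PEE-PH-TA replicate 3, namely 1. PEE-PH-TA against PEE-PH called 0 of 10 members in limma (0 at an unadjusted p under 0.05, 0.721% of all genes), and PEE-PH-TA against PEE-TA called 0 of 10 (1 at an unadjusted p under 0.05, 0.240% of all genes). For C1qc these changes were -0.08 ± 0.13 and -0.05 ± 0.13.

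No member departed from the sum of the single-compound log2 changes in limma. PEE-PH called 0 of 10 (1 at an unadjusted p under 0.05), where 0% of all genes were called, and PEE-TA called 0 of 10 (2 unadjusted), where 0.0680% were called. PH-TA called 0 of 10 (0 unadjusted), where 0.0136% were called, and PEE-PH-TA called 0 of 10 (0 unadjusted), where 0% were called. The members' median departure was -0.07 for PEE-PH, -0.17 for PEE-TA, 0.02 for PH-TA and -0.04 for PEE-PH-TA. Over all genes these medians were -0.03, -0.02, -0.01 and 0.04. As 1 example, not the largest, the departure of C1qc for PEE-PH-TA was 0.02 ± 0.26, with a 95% interval from -0.53 to 0.58. With 3 samples a group, departures within these bounds cannot be told apart from a plain sum.

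The 250 bases before the annotated starts of C1qb and C1qc are shown because both genes moved together and both stretches hold the 6-letter core GAGGAA, which reads as TTCCTC on the other strand, the PU box read by PU.1, a transcription factor of macrophages. The sequences are from RefSeq on GRCm38.p6, on the minus strand, at chr4:136886201-136886450 for C1qb and chr4:136892915-136893164 for C1qc, and the capitals mark the core:
C1qb promoter: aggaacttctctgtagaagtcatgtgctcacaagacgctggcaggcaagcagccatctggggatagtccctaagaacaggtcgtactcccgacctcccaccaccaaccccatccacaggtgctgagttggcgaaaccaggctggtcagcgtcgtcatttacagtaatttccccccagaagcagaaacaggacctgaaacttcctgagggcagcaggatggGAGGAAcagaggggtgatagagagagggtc
C1qc promoter: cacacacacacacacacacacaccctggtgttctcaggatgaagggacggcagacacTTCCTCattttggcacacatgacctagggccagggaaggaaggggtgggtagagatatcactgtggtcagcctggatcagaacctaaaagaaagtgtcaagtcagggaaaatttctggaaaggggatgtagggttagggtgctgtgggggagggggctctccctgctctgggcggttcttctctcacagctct
Of the 7 members with a promoter in the table, 6 held this core on either strand within 250 bases of the start, against 23.3% of 32851 promoters. C1qa, Adgre1 and Csf1r were not among the 7. The core was absent from the window of Cd163. It was present in those of Itgam, Mrc1 and also Cd68, which rose with PEE on average, so it does not set apart the genes that fell together. A match is a description of letters and was not tested as a binding site.

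Adgre1 and Mrc1 encode surface receptors: Adgre1 encodes F4/80, an adhesion receptor that marks mouse macrophages, and Mrc1 the mannose receptor, which takes up glycoproteins. Adgre1 measured -0.81, -0.58 and -0.78 with PEE-PH-TA and -0.75, -0.62 and -0.59 with PEE-PH, against -0.16, -0.05 and 0.24 in control samples, with no overlap. It fell with PEE-PH-TA (log2 change -0.74 ± 0.18, adjusted p = 0.00908) and fell by 36.9% with PEE-PH (-0.66 ± 0.18, adjusted p = 0.00854). Control replicate 3 was the highest Adgre1 sample of all 24, and without it the PEE-PH-TA call was lost (-0.62, adjusted p = 0.0553). The PEE-TA call for Adgre1 (-0.52 ± 0.18, adjusted p = 0.0443) was lost without any 1 of 10 arrays and with the slide, which is the replicate number, as a block (0.0554), and had an adjusted p of 0.184 without PEE-TA replicate 2.

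The average effect of PEE on Adgre1 was -0.35 ± 0.09 (adjusted p = 0.00681), lost only without all arrays of replicate 3 (0.109). The average effect of PH on Adgre1 was -0.27 ± 0.09 (adjusted p = 0.0287), lost without any 1 of 5 arrays (control replicate 3, PH replicate 2, TA replicate 1, PH-TA replicate 1 or PEE-TA replicate 1, adjusted p 0.0539 to 0.0574). With the 75th percentile as a covariate that PH effect was -0.01 (adjusted p = 0.991), whereas the PEE effect was -0.45 (adjusted p = 0.00161). Mrc1 was called for the average effect of PEE (-0.30 ± 0.08, adjusted p = 0.00854), lost without all arrays of replicate 1 (0.0638) or of replicate 2 (0.151). It ranged from -1.25 through a median of -1.05 to -0.68 in the 12 samples with PEE, against -1.06 through -0.68 to -0.44 without it, and the sets overlapped. In no single group against control was Mrc1 called in limma, and its log2 changes there ran from -0.33 (PEE-TA) to 0.15 (PH-TA).

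Csf1r, the receptor for the growth factors CSF1 and IL34, was called in none of the comparisons with control. It measured 2.52, 2.84 and 2.42 with PEE-PH-TA and 2.82, 2.92 and 2.94 with PEE, against 2.70, 2.81 and 2.89 in control samples, so that both groups overlapped the controls. The lowest adjusted p among those comparisons was 0.083, for PH-TA. The average effect of PH was -0.17 ± 0.05 (adjusted p = 0.0141), whereas the second Csf1r probe gave -0.12 ± 0.05 (adjusted p = 0.0748 over all probes) and the 75th percentile as a covariate gave -0.00 (adjusted p = 0.985). Across 24 arrays Csf1r had a Pearson r of -0.76 with the log2 75th percentile of the array. Of its ligands, named after their values were seen, Csf1 fell with PH on average (-0.35 ± 0.06, adjusted p = 0.000576), and Il34 was at -0.04 ± 0.05 (adjusted p = 0.597). Csf1 was not called for PEE on average (0.04 ± 0.06, adjusted p = 0.715) or for PEE-PH-TA against control (-0.30 ± 0.12, adjusted p = 0.116). Against control it was called lower with PH, PEE-PH, PEE-TA and PH-TA. A link between Csf1 and the members was not tested.

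Cd163, a scavenger receptor for haemoglobin bound to haptoglobin, was well above background on 3 of 24 arrays, all of them PH-TA, and it passed the filter only through that group. It measured -5.47, -4.89 and -5.21 with PH-TA, against -5.82, -6.03 and -6.20 in control samples, which were not well above background, and it is given no fold. Limma called it in no comparison with control, with adjusted p 0.0843 for PH-TA, and its sign turned with another background correction.

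Cd68 encodes a glycoprotein of macrophage lysosomes and did not follow Aif1 and C1q across the groups. It measured 3.31, 3.45 and 3.16 with PEE-PH-TA and 3.32, 3.56 and 3.43 with PEE, against 3.27, 3.08 and 3.27 in control samples. The PEE samples were all above the controls, and the PEE-PH-TA samples overlapped them. Over the 12 samples with PEE it ranged from 3.16 through a median of 3.34 to 3.56, against 2.97 through 3.20 to 3.36 without PEE, and 6 samples with PEE exceeded every sample without it. The average effect of PEE was a rise (log2 change 0.19 ± 0.05, adjusted p = 0.00599), lost without all arrays of replicate 2 (0.163). The other 2 probes of Cd68 gave 0.18 ± 0.06 (adjusted p = 0.0499 over all probes) and 0.17 ± 0.08 (adjusted p = 0.162). No single group was called against control for Cd68.

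The promoter of Cd68 is shown because it differs from those of C1qb and C1qc in its letters: besides the PU core it holds TGAGTCA, the site of AP-1 factors (TGACTCA on the other strand), in 2 copies, and 4.46% of 32851 promoters hold at least 1 copy. The sequence is from RefSeq on GRCm38.p6, minus strand, chr11:69666171-69666420, and the capitals mark these motifs:
Cd68 promoter: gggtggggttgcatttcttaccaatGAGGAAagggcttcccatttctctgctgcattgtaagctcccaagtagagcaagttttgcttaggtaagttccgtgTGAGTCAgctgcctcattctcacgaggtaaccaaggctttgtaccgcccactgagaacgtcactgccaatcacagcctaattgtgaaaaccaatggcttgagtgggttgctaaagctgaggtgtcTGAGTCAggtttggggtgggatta
Of the 7 member promoters only that of Cd68 held TGAGTCA. The same scan covered a MAF half-site, held only by the promoter of C1qb, and an interferon element, held only by that of Aif1. The promoters of C1qb and C1qc thus also differ from each other, although both genes fell with PEE on average. These matches describe letters, and a link between them and the direction of a gene's change was not tested.

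Within groups Aif1, the C1q genes and Cd68 had high correlations, and Itgam had lower ones (r from 0.17 to 0.42 with the other members detected on all arrays). Lower values were not particular to Itgam: Mrc1 had r = 0.35 with Cd68 and 0.40 with Aif1, and Csf1r 0.43 with Adgre1. After each group's mean was subtracted, C1qa and C1qc had r = 0.95 (0.91 without the 2 samples farthest from the median of C1qa), C1qa and C1qb r = 0.91 (0.84), and Aif1 and C1qb r = 0.87 (0.76). Cd68 had r = 0.88 with C1qc in the same way (0.82 without its 2 farthest samples) and 0.80 with Aif1 (0.68). Without that subtraction Cd68 had r = -0.35 with C1qc and -0.20 with Aif1 across the 24 arrays. The Spearman coefficients were 0.90 for C1qa with C1qc and 0.79 for Cd68 with C1qc within groups. Points share arrays, slides and normalization, and these values are descriptions.

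**Figure D3:**
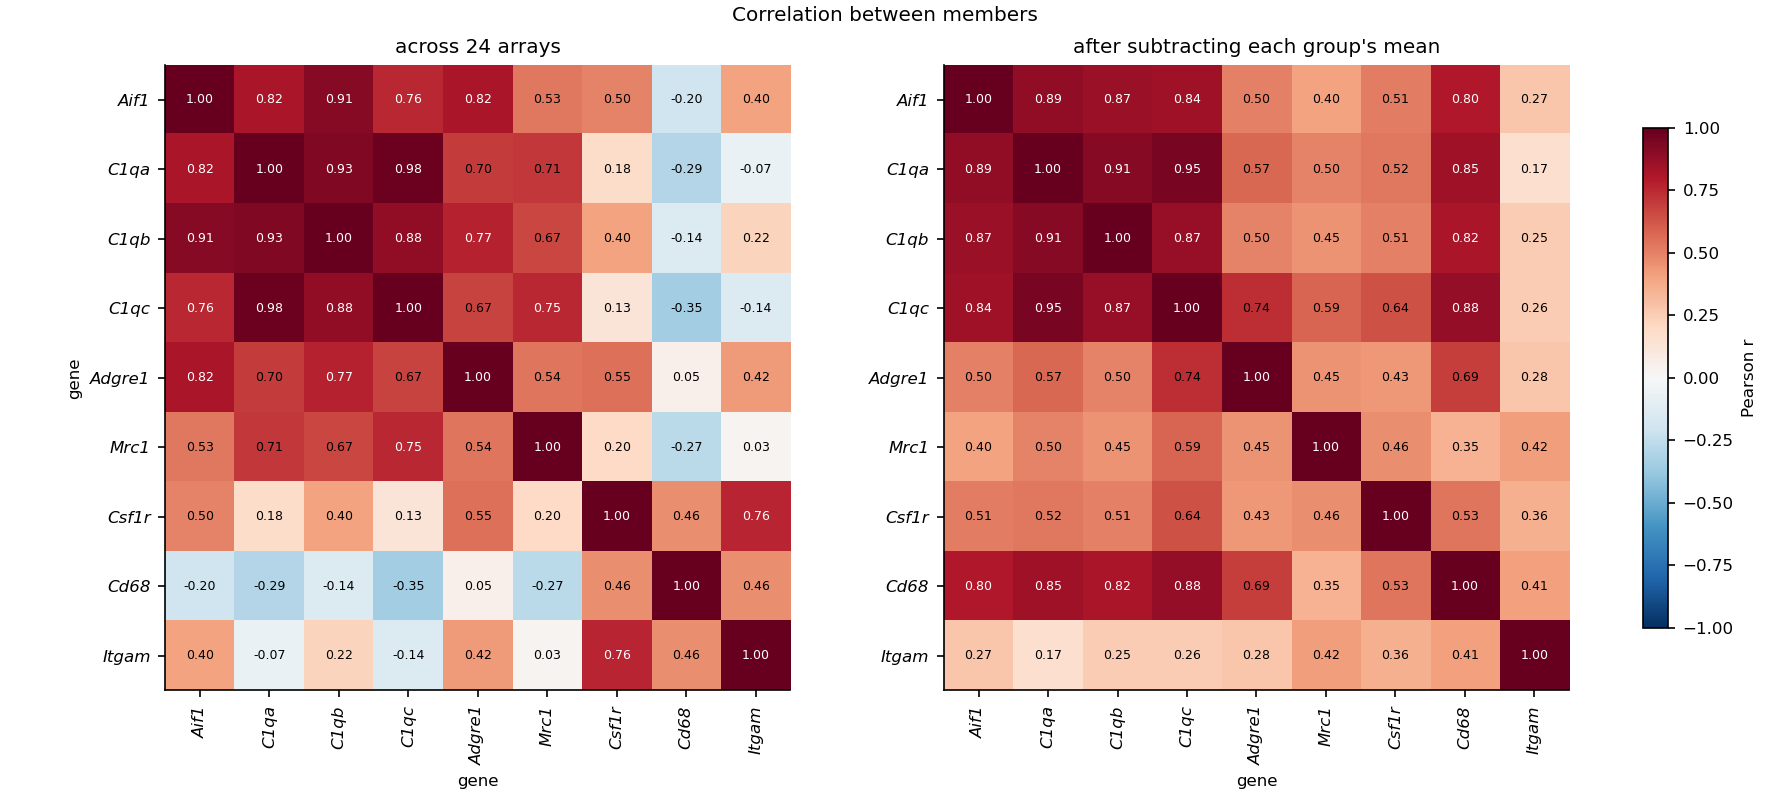
Pearson r between 9 members, across 24 arrays (left) and after each group's mean was subtracted (right); colour runs from -1 to 1. Cd68 turns from -0.35 with C1qc on the left to 0.88 on the right, and Itgam stays between 0.17 and 0.42 on the right. Mrc1 also has lower values there, such as 0.35 with Cd68.

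Itgam encodes integrin alpha M (CD11b), the alpha chain of a complement receptor, and its values rest on a probe that begins with a dinucleotide repeat. The first 30 bases of that probe, at chr7:135261755-135261814 on the plus strand of mm9, are shown with the repeat of 20 bases in capitals, beside the whole of its other tested probe at chr7:135212140-135212199, which has no such run:
Itgam probe used: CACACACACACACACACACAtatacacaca
Itgam other probe: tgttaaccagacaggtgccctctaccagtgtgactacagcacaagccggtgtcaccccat

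By the repeat probe, Itgam measured 3.05, 3.11 and 3.32 in PEE samples, 2.42, 2.18 and 2.33 in PH samples and 2.47, 2.43 and 2.46 in PEE-PH-TA samples, against 2.75, 2.63 and 2.94 in control samples. The PEE samples were above all controls and the PH samples below them. It was called higher with PEE (log2 change 0.38 ± 0.11, adjusted p = 0.0367) and lower with PH (-0.47 ± 0.11, adjusted p = 0.0236), PEE-PH (-0.44 ± 0.11, adjusted p = 0.00554), PH-TA (-0.41 ± 0.11, adjusted p = 0.0112) and on average with PH (-0.41 ± 0.06, adjusted p = 7.23e-05). With the slide as a replicate block it was also called lower for PEE-TA (adjusted p = 0.0379), PEE-PH-TA (0.021) and TA on average (0.0499).

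The same changes were seen in probes of other genes with such a repeat. The array held 40 other tested probes with at least 8 CA repeats in a row, of 40 other genes or transcripts, and across 24 arrays the Itgam probe had r = 0.96 with their mean (0.94 without the 2 farthest samples, 0.75 after each group's mean was subtracted). Its r with each of them ran from 0.765 to 0.994, against a median of 0.10 with all other tested probes. With PEE their median log2 change was 0.40, beside 0.38 for Itgam, and with PH it was -0.43, beside -0.47. All 40 changed in the direction of Itgam in each of the 7 comparisons with control. Among the other members Csf1r had the highest r with the mean of these probes, 0.76 (0.35 after each group's mean was subtracted). Cd68 had 0.49, and C1qa, C1qb and C1qc had -0.09, 0.21 and -0.17. What links Csf1r to the repeat probes was not tested. The other Itgam probe was well above background on 13 of 24 arrays, had r = 0.31 with the repeat probe, and was called in no comparison: it changed by -0.08 ± 0.53 with PEE (adjusted p = 0.955 over all probes) and by -0.13 ± 0.26 on average with PH. The Itgam values therefore cannot be told apart from those of the repeat, and its calls with PEE and PH alone were also lost without any 1 of 4 arrays each.

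**Figure D4:**
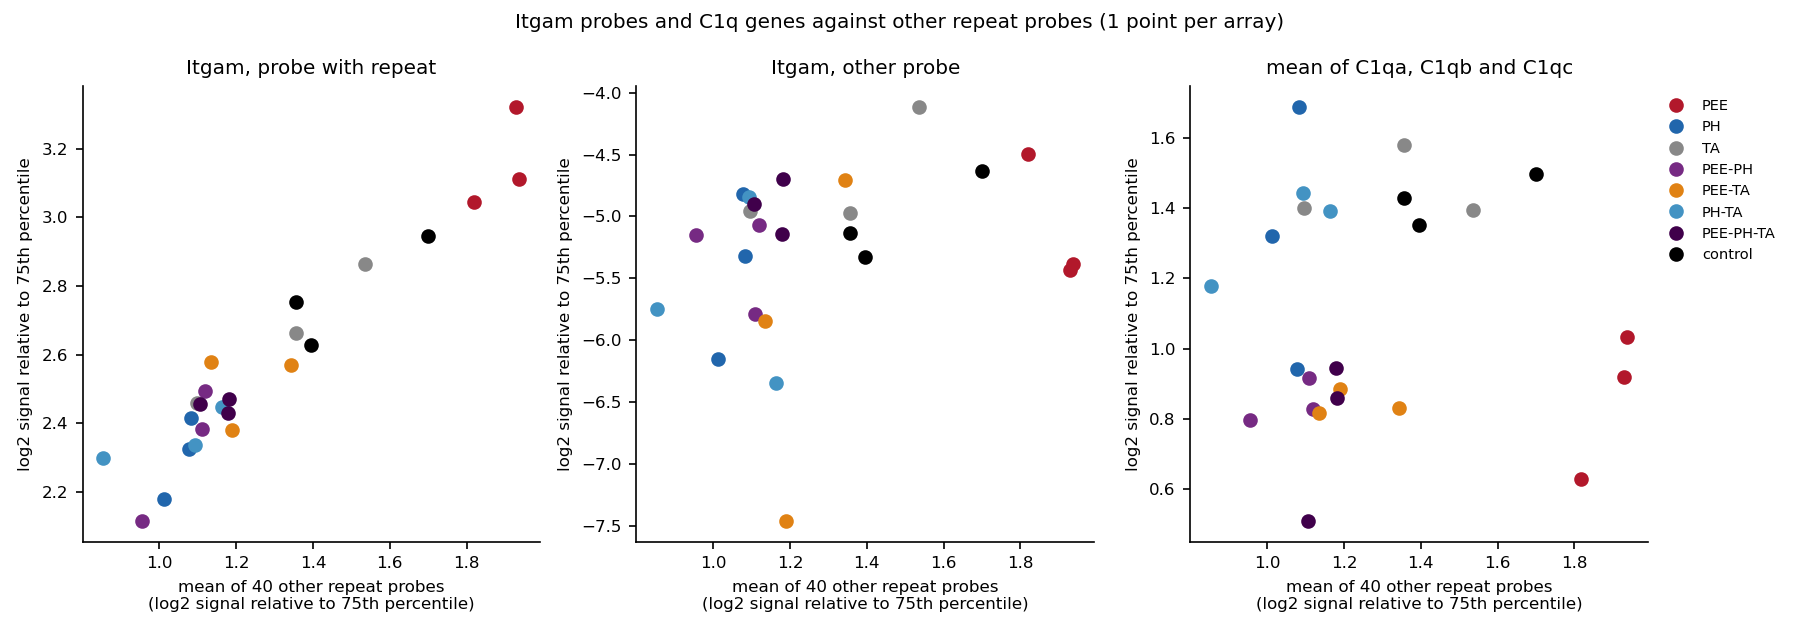
Log2 signal of the Itgam probe with the repeat, of the other Itgam probe and of the mean of the 3 C1q genes (vertical axes) against the mean of 40 other repeat probes (horizontal axes), 1 point per array, coloured by group. The repeat probe of Itgam follows the other repeat probes (r = 0.96), and its other probe does so loosely (r = 0.28).

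Other genes of the macrophage programme moved in part with the members. Of 28 measured other macrophage genes, 7 fell and 2 rose with PEE-PH-TA, where 8.72% of all genes fell and 7.78% rose, so that the risers were near the share of all genes. Their median log2 change was -0.21, against -0.44 for the 10 members and -0.00 for all genes. The largest falls were in Siglec1, a sialic acid receptor (-1.81 ± 0.40, adjusted p = 0.00436), and Fcgr1, the high-affinity receptor for immunoglobulin G (-1.34 ± 0.21, adjusted p = 0.000346). Cd33, another sialic acid receptor, was higher (0.83 ± 0.25, adjusted p = 0.0258). Fcgr1 averaged -1.53 with PEE-PH-TA, -1.77 with PEE-PH and -1.22 with PEE, against -0.20 in control follicles.

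Of 9 measured growth factors and receptors for macrophages, 3 fell and none rose with PEE-PH-TA, beside the same 8.72% and 7.78% of all genes. Csf2, a growth factor of myeloid cells, fell by 2.42 ± 0.40 on the log2 scale (adjusted p = 0.000454; 2 of the 3 PEE-PH-TA arrays measured it well above background), and Ccl2, a monocyte attractant, by 1.03 ± 0.21 (adjusted p = 0.00226). Of 16 complement partners of C1q, 5 fell and none rose, among them C2 (-1.50 ± 0.28, adjusted p = 0.00121) and Cfb (-1.20 ± 0.36, adjusted p = 0.0266), which encode complement proteases. Of 19 activation genes, 4 fell and 2 rose: Cd274 (-1.11 ± 0.23, adjusted p = 0.00264) and Cd86 (-0.77 ± 0.22, adjusted p = 0.0237), which encode T cell regulators, were among the fallers. The risers, a share near the 7.78% of all genes, were Chil3, a chitinase-like protein (1.10 ± 0.26, adjusted p = 0.00771), and Gpnmb, a lysosomal glycoprotein (0.49 ± 0.11, adjusted p = 0.00387).

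Markers of other cell types were counted in the same comparison, PEE-PH-TA against control, where 8.72% of all genes fell and 7.78% rose. Of 16 pan-leukocyte genes 6 fell and none rose, with Cd52 at -1.07 ± 0.16 (adjusted p = 0.000176) and Rac2 at -0.68 ± 0.15 (adjusted p = 0.00367), and the mean level over the 16 genes ran from -0.87 to -0.67 in PEE-PH-TA samples, against -0.42 to -0.21 in control samples. Of 9 mast cell genes 4 fell and none rose, and of 12 Langerhans and dendritic cell genes 3 fell and none rose. Of 12 T and NK cell genes 2 fell and none rose, and of 12 neutrophil genes 2 fell and 1 rose. Of 6 B cell genes 1 rose, and of 10 fibroblast genes 1 rose and 1 fell. The counts for T and NK, neutrophil, B cell and fibroblast genes are too small to set apart from those shares. Of 10 endothelial genes 3 rose and none fell, and of 15 hair follicle keratinocyte genes 7 rose and 3 fell. Their part in the changes of the members was not tested.

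**Figure D5:**
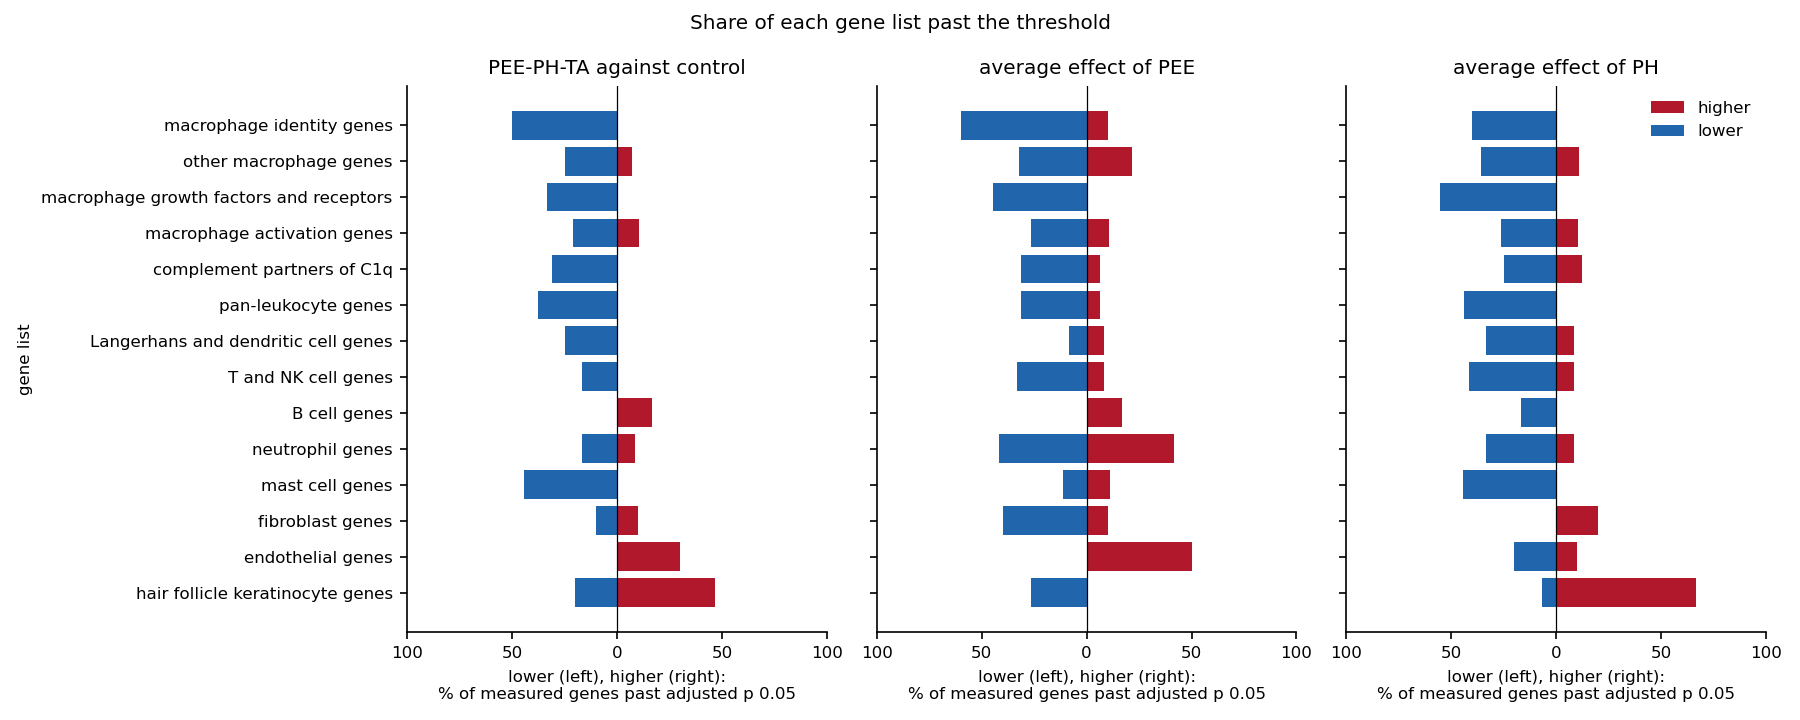
Percent of the measured genes of each list (rows) that were lower (blue, left) or higher (red, right) past an adjusted p of 0.05, for PEE-PH-TA against control, for PEE on average and for PH on average. For PEE-PH-TA, 5 of 10 macrophage identity genes were lower and none higher, and 7 of 15 keratinocyte genes were higher.

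Likeness to the members was the Pearson r over 24 arrays with the mean of the 9 members detected on all arrays, each centred on its own mean. The highest r was that of Ms4a6c (0.92), followed by Ly86, Rac2, Coro1a, Vav1, Lcp1, Hk3, Clec4a1, Cd52 and Themis2 (0.91 to 0.88). After each group's mean was subtracted, Ms4a6c had r = 0.75 and Hk3, a hexokinase, r = 0.87. The lowest r were those of Phlda3 (-0.88), Thrb, Cnppd1, Neu2 and Mknk2 (-0.86). Without Itgam, whose probe follows the repeat, 5 of the 10 highest remained among the 10 highest (Vav1, Ms4a6c, Themis2, Ly86 and Lcp1). Rac2, Coro1a, Hk3, Clec4a1 and Cd52 did not. At the other end Thrb stayed among the 5 lowest without Itgam (-0.87), and Phlda3, Cnppd1, Neu2 and Mknk2 did not. The mean of the 9 members, Itgam included, stood at 0.24 ± 0.10 in control samples (SD, n = 3). It was -0.23 ± 0.12 with PEE-PH-TA, -0.21 ± 0.08 with PEE-PH and -0.16 ± 0.02 with PEE-TA. With PEE alone it was 0.04 ± 0.18, beside 0.07 ± 0.25 with PH, 0.05 ± 0.10 with PH-TA and 0.20 ± 0.07 with TA. Itgam by its repeat probe was highest with PEE and lowest with PH, which bears on these means. Without Itgam the PEE samples were at -0.24, 0.13 and 0.01, and the PH samples at 0.40, 0.07 and -0.15. The PH-TA samples were then at -0.03, 0.10 and 0.19, and the control samples at 0.19, 0.19 and 0.36.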

How the data were processed

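Gene expression was measured in 24 samples (8 groups of 3), each on 1 array, labelled with biotin per the labels. The deposited arrays hold intensity values read by Agilent Feature Extraction 12.0.3.1, per the submitters' processing notes; the green processed signal was used. The deposited value table holds log2 values, whose columns each matched their own scan best (24 of 24) and had medians of 3.97 to 4.05 over spots without controls; its scale and centring are otherwise not given in the sources used here.

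Each log2 signal was set against the 75th percentile of its array over 59305 spots without controls. Outlier spots were removed, and probes entered the test when 1 or more groups had them well above background throughout. The highest-mean probe stood for a gene (22065 genes or transcripts, 33340 probes). Names came from the files, and 35405 probes matched a RefSeq accession. A group-means model over all 24 arrays was fitted with limma 3.58.1 in R 4.3.3 (16 residual degrees of freedom), with Benjamini-Hochberg adjustment and a threshold of 0.05. The tests were checked on simulated data. There were 0 columns of the deposited values that could not be mapped to a sample.

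The members, gene lists and tests were chosen with earlier results of these data known. All 10 members are named, and of each other list the 2 largest called changes in each direction with PEE-PH-TA, except a gene that is not reported here; the Csf1r ligands and the difference between the average effects of PEE and PH were added after values were seen. Correlations carry no p. The alternatives tried were quantile normalization, normexp background, the deposited value table, dim probes kept, probes averaged, a replicate block, another prior, the 75th percentile as a covariate, only the arrays compared, Itgam by its other probe, and each array or replicate number left out. The number of arrays limits the precision.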

Additional observations from a re-analysis of the deposited data

How the results depend on the processing

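The members in 11 comparisons were recomputed under up to 37 alternatives, some added after seeing the data. Of 4030 values 3833 kept their direction and side of the threshold, 158 lost the call, 32 gained one and 7 reversed. Counts of called members that moved by over 1.5 times were as follows. Normexp background gave 2 for the average effect of TA (0 in the report), 1 for PEE-PH against the sum (0) and 5 for the triple mixture set against PH-TA (3). No filter on dim probes gave 1 for PH (2), and so did the mean of probes and the other Itgam probe, each also 1 for PH-TA (2). The 75th percentile as a covariate gave 0 for PH (2), 1 for PEE-PH (6), 2 for PEE-TA (5), 0 for PH-TA (2), 0 for the average effect of PH (4) and 3 for the difference between the PEE and PH effects (7). Over all genes that covariate left 25 higher and 93 lower for PH-TA, against 2661 and 3860. For the average effect of PEE it left 2333 and 2538, against 2826 and 3136. Fits to only the arrays compared gave 2 for PEE (4), 0 for PH (2) and also 0 for the triple mixture set against PH-TA (3). The causes were not tested, apart from fewer samples in the last.

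With 1 array or 1 replicate number left out, counts ran from 0 to 5 for PEE, 0 to 2 for PH, 3 to 7 for PEE-PH, 1 to 5 for PEE-TA, 1 to 3 for PH-TA, 1 to 6 for PEE-PH-TA, 5 to 7 for the average effect of PEE, 2 to 5 for that of PH, 0 to 4 for the triple mixture set against PH-TA and 4 to 8 for the difference of effects. Single arrays moved the count for PH to 0 (control replicates 1 and 3, PH replicates 2 and 3) or 1 (control replicate 2), and for PH-TA to 1 (control replicate 3). Without all arrays of number 2 or 3, the C1qa, C1qb and C1qc calls for PEE-PH-TA were lost (adjusted p 0.0537 to 0.124), and without those of number 1 or 2 the Aif1 call for PEE alone was lost (0.11 and 0.0814); fewer samples enter these fits.

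The reversed values were those of Cd163 under normexp (-0.21 for PEE-PH, -0.23 for PH-TA, -0.13 and -0.10 for the average effects of PH and TA, 0.17 for the difference) and of Itgam by its other probe (Itgam -0.075 for PEE and -0.018 for the difference of effects). Over all genes, quantile normalization gave 4196 higher and 3486 lower with PEE-PH, against 3293 and 4621 as reported, 3463 and 2807 with PH-TA, against 2661 and 3860, and 3888 and 2814 for the average effect of PH, against 3059 and 3839.

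With the replicate block, 1 member was called for the average effect of TA (Itgam, adjusted p = 0.0499), Itgam was also called for PEE-TA and PEE-PH-TA, and Adgre1 for PEE-TA was lost (0.0554). Same-numbered arrays shared a slide. They had a mean r of 0.10 between deviations from group means, other arrays -0.05, and 21 of 24 arrays correlated best with their own number.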
